A study of Mus musculus with 18 samples.

Results

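The comparison described here is that of Txnip-treated with control cones in BALB/c mice at postnatal day 21. Its members are the 12 libraries whose labels give that strain and age, out of 18 libraries in the series: 6 that received Txnip and 6 controls. BALB/c is an albino strain with wildtype photoreceptors. Txnip retinas had been injected at birth with an adeno-associated virus that drives Txnip from the human red opsin promoter, mixed with a virus that labels cones with the nuclear marker H2BGFP, and control retinas had received the H2BGFP virus alone. The promoter acts mainly in cones, with weak activity in part of the rods per the study, both groups carry the labelling virus, and the design holds no virus that expresses another protein from the red opsin promoter. Labelled cones were sorted from dissociated retinas and profiled by a full-length low-input RNA-seq protocol, with 1 library per retina. The labels do not say which retinas came from the same mouse, so the p-values below measure the spread between these libraries. The other 6 libraries, 3 Txnip and 3 control, come from pigmented C57BL/6J mice at postnatal day 35 and enter only where the strains are compared.

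Txnip (thioredoxin-interacting protein) is an alpha-arrestin. It binds thioredoxin and takes part in removing glucose transporters from the cell surface, and its own transcription follows glucose-derived sugars through the MondoA sensor. Cones are among the most energy-demanding neurons, with aerobic glycolysis, a dense mitochondrial cluster and constant turnover of membrane and synaptic vesicles, so genes of fuel use, mitochondrial placement, proteostasis and secretion were grouped for description.

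The libraries held from 1723214 to 5172156 counts in control and from 647712 to 4699750 in Txnip cones, with medians of 2085120 and 2101656. Txnip 4, 5 and 6 had fewer counts than every control. The transgene separated the libraries as labelled. Txnip was counted 0 to 3 times in a control library and 663 to 5851 times in a Txnip library, and its antisense neighbour Gm15441, which shares exonic bases with it, 360 to 3028 times in a Txnip library. Genes of cone phototransduction and identity took 6.04% to 7.64% of control counts and 5.63% to 6.597% of Txnip counts. Endothelial markers summed to at most 21.1 CPM (counts scaled to the size of the library, the unit of all levels below) and none of their 13 genes passed the filter on low counts. Of the 15 microglial markers 2 passed it. Each group held 3 libraries with 1700 or more Xist counts and 3 with at most 12, so neither group was dominated by retinas of 1 sex.

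The libraries also differed in the share of counts that fell on ribosomal RNA. The share of counts on a ribosomal RNA locus of chromosome 17, the overlapping genes CT010467.1, Gm42418 and AY036118 (GRCm38, chr17:39846353-39848827), was 6.00% in control 5, 6.07% in control 4 and 8.696% in control 2. In controls 1, 3 and 6 it was between 14.98% and 15.7%. All 6 Txnip libraries lay between 11.99% and 16.3%, so the control group was split and the Txnip libraries sat nearer to controls 1, 3 and 6. In the smallest library, Txnip 6, the 95% Wilson interval of the share was 16.2% to 16.4%, which covers counting error only. A read pair can count on each of the 3 genes, so the share overstates the fraction of pairs. Between groups the share did not pass a two-sided exact permutation test after Benjamini-Hochberg adjustment over 4 values (adjusted p = 0.124), nor did the total count (0.556). The number of genes detected also varied. Controls 4 and 5 had counts on 29629 and 29401 genes against 24007 in control 6, which was the deepest library of all. Among them were 4144 and 3978 pseudogenes, against 2394 in control 6 and 845 to 2307 in Txnip libraries.

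**Figure D1:**
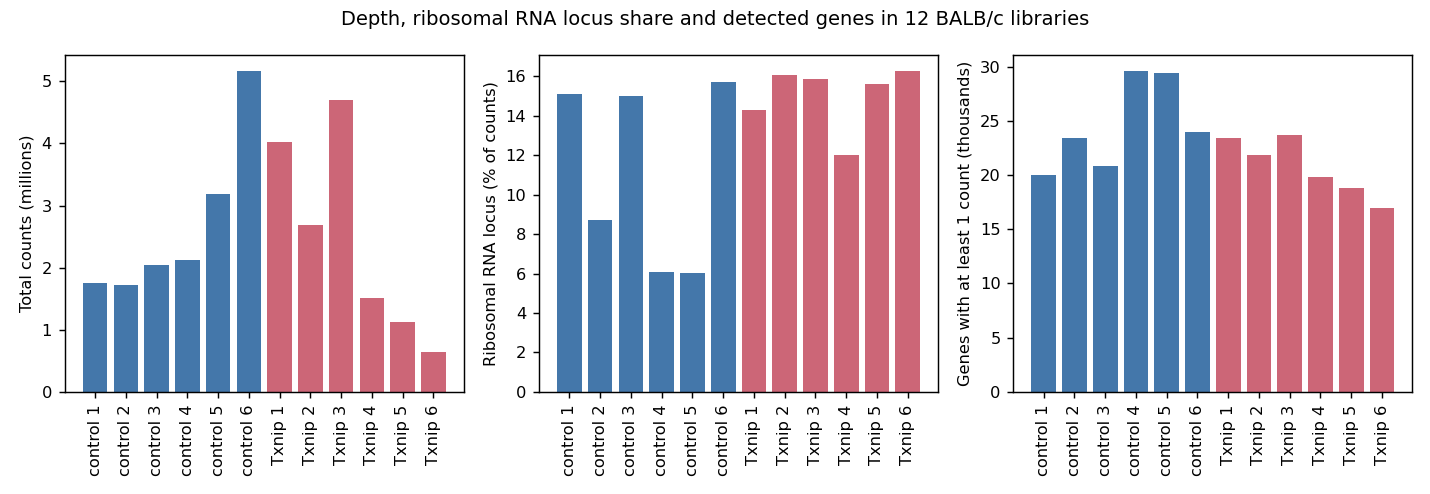
Total counts, share of counts on the ribosomal RNA locus and number of genes with at least 1 count in each BALB/c library (blue bars, control; red bars, Txnip). Controls 2, 4 and 5 have the smallest ribosomal RNA locus shares (6.00% to 8.696%), and controls 4 and 5 the most genes detected.

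The question of the comparison is which genes, other than the transgene, differ in cones that express Txnip. With edgeR's quasi-likelihood test and Benjamini-Hochberg adjustment, 2 of 12017 genes tested were called (0.0166%), Txnip and Gm15441. No other gene passed. At an unadjusted p under 0.05 there were 559 genes higher with Txnip (4.65% of those tested) and 813 lower (6.77%). The groups of 6 did not overlap in CPM for 35 genes that were higher in every Txnip library (0.291%), Txnip and Gm15441 included, and for 45 that were lower in every one (0.374%). DESeq2 on the same counts called 20 higher (0.205%) and 56 lower genes (0.575% of the 9744 it gave an adjusted p). DESeq2 was run without edgeR's filter on low counts, so the fits cover different genes. Its median difference was −0.15 on the log2 scale, against 0.00024 in edgeR. At an unadjusted p under 0.05 it had 594 higher and 1525 lower genes. With DESeq2's size factors in edgeR the median was 0.0062, with 609 higher and 793 lower genes. The genes described next are those with the smallest p at a mean of at least 10 CPM, 15 in each direction. They were ranked on this contrast, so their differences are descriptions of what lies just outside the threshold. Their edgeR adjusted p-values ran from 0.0629 to 0.112 in the higher set and were 0.106 throughout the lower set.

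The gene nearest the threshold was Pax6, a transcription factor kept in amacrine and ganglion cells of the adult retina. It ran from 44.2 to 69.5 CPM in controls with a median of 55.7, and from 81.1 to 102 with a median of 86.2 in Txnip cones. The groups did not overlap, with a log2 fold change of 0.65 (SE 0.11, edgeR adjusted p = 0.0629). Gad1, the enzyme that makes GABA, ran from 83.6 to 156 CPM (median 113) in controls and from 153 to 247 (median 201.4) with Txnip. Here control 1 reached into the Txnip range, and the log2 fold change was 0.78 (SE 0.15). Both are markers of inhibitory amacrine cells.

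Among the other genes of the higher set, Tgfb3, a TGF-beta ligand, had the largest difference, 1.28 on the log2 scale (SE 0.25). Controls ran from 4.66 to 32.9 CPM and Txnip cones from 33.98 to 46.4. Its lowest value, in control 2, stood well under the other controls, and control 1 came close to the Txnip range. Gucy1a1, a subunit of the soluble guanylate cyclase that answers nitric oxide, went from a median of 29.00 CPM (range 19.2 to 35.9) to 48.5 (range 38.8 to 54.02), with no overlap. Pck2, the mitochondrial phosphoenolpyruvate carboxykinase, was at 6.996 to 12.5 CPM in controls and 12.9 to 24.6 in Txnip cones, a log2 fold change of 0.92 (SE 0.20). It too separated the groups, by a narrow margin between control 6 and Txnip 6.

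The remaining members of the higher set are given with what they encode. Whether any function is more frequent among the 15 was not tested. Srebf2, which turns on sterol synthesis genes, was at a median of 38.3 CPM in controls and 58.5 with Txnip (log2 fold change 0.53, SE 0.12). Scd2, a stearoyl-CoA desaturase, was at 57.1 and 82.6 (0.52, SE 0.13). Both overlapped between groups, Srebf2 only through control 3 and Txnip 3. The matrix genes Col6a1 (collagen VI) and Agrn (agrin), the actin-binding drebrin gene Dbn1, the atypical cadherin Celsr3, the Integrator subunit gene Ints13 and Tm9sf1 separated the groups, with log2 fold changes from 0.45 (Celsr3) to 0.78 (Col6a1). Rab3c, a GTPase of synaptic vesicles, and Atrnl1 overlapped between groups, at 0.74 and 0.94. In total 10 of the 15 had no overlap between groups, and DESeq2 called all 15. The spans of Tgfb3, Tm9sf1 and Ints13 overlap those of other genes (Ttll5, Gm49378 and Fgfr1op2), and reads in bases that are exonic in both would count for both.

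The lower set had larger counts and a different shape across libraries. Rhot1 encodes Miro1, the GTPase that ties mitochondria to microtubule motors. It was at 559, 768, 566, 679, 757 and 607 CPM in controls 1 to 6 and at 539.6, 521, 289, 220.1, 287 and 291 in Txnip 1 to 6. The groups did not overlap (log2 fold change −0.86, SE 0.18), yet Txnip 1 and 2 lay close to control 1 while Txnip 3 to 6 lay far below.

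Other members showed 3 levels. Lamp1, the major protein of the lysosome membrane, was at 190.0, 261 and 265 CPM in controls 2, 4 and 5, between 98.2 and 138 in controls 1, 3 and 6, at 126 and 87.4 in Txnip 1 and 2, and between 39.1 and 50.2 in Txnip 3 to 6. Controls 2, 4 and 5 were highest, controls 1, 3 and 6 with Txnip 1 and 2 formed a middle level, and Txnip 3 to 6 were lowest. Its log2 fold change of −1.35 (SE 0.29) was the largest of the lower set. Grtp1, another of the set, overlaps Lamp1 on the opposite strand, and counting without strand can add reads of one to the other. Mlf2 was at 242 to 393 CPM in controls, at 262 and 226 in Txnip 1 and 2, and at 124 to 149 in Txnip 3 to 6. Unc119b, which carries lipid-modified proteins to cilia, and Get4, of the tail-anchored protein insertion pathway, had log2 fold changes of −1.002 and −0.79, also with Txnip 1 and 2 above the other Txnip libraries. In 11 of the 15 lower genes both Txnip 1 and 2 exceeded all of Txnip 3 to 6, against 3 of the 15 higher genes, and in 10 all of controls 2, 4 and 5 exceeded controls 1, 3 and 6. In 7 of the 15 higher genes all of controls 2, 4 and 5 were below controls 1, 3 and 6.

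A few lower genes were more even. Klhdc8a ran from 269 to 319 CPM in controls and from 204 to 262 in Txnip cones, a log2 fold change of −0.38 (SE 0.083). Clca1, a chloride channel accessory gene, went from 421 to 565 against 361 to 399 (−0.37, SE 0.082). Neither overlapped between groups, and in neither did Txnip 1 and 2 stand apart. Drd4, the dopamine receptor through which light adaptation acts on photoreceptors, was at a median of 224 CPM in controls (range 167 to 375) and 149 with Txnip (range 109 to 172), overlapping through control 3 and Txnip 1. Ppp1r15a, the phosphatase subunit that ends the integrated stress response, was at 44.8 and 27.97 CPM (−0.72, SE 0.15). Amer2, Snrk (a kinase related to AMPK), Entr1 and Fam104a completed the set, between −0.60 (Entr1) and −0.77 (Amer2). Fam104a overlaps Cog1 on the opposite strand. The 15 genes included 8 without overlap, and DESeq2 called 14 of the 15.

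**Figure D2:**
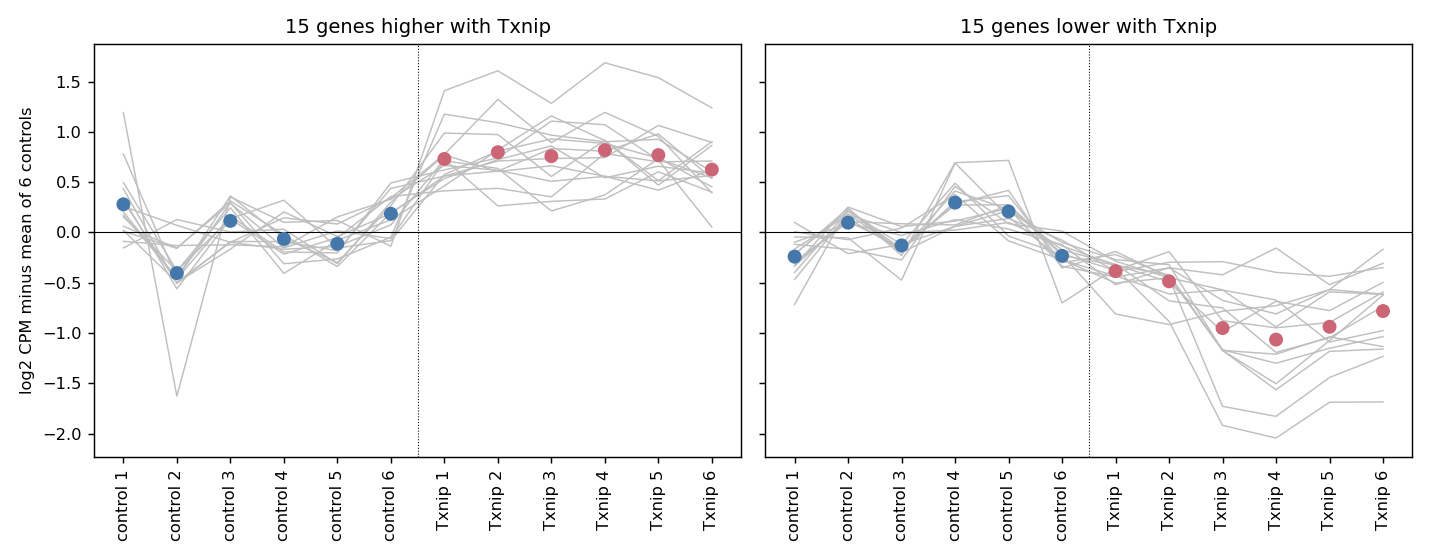
Level of each of the 15 higher and 15 lower genes in the 12 libraries, as log2 CPM minus the mean of the 6 controls (grey lines, genes; blue and red points, mean over the genes in control and Txnip libraries). The higher genes sit at one level in all 6 Txnip libraries, and the lower genes sit lower in Txnip 3 to 6 than in Txnip 1 and 2, while among controls the mean of the lower genes is highest, and that of the higher genes lowest, in controls 2, 4 and 5.

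Genes were also described in 53 lists of known function. Of these, 6 lists with at least 5 tested genes had a median log2 fold change more than 0.2 from that of all genes, which was 0.00024. The lists were chosen with earlier results known, and their counts are read against the 4.65% higher and 6.77% lower among all genes. With the ribosomal share as a covariate all genes had 2.26% higher and 3.61% lower, so counts under it are read against these. Without controls 2, 4 and 5 there were 286 higher and 329 lower of 12544 genes.

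Fuel genes gave small differences. Of 21 glycolytic genes tested, 5 were higher and 1 lower at an unadjusted p under 0.05, with a median of 0.10. They were Pfkp (platelet-type phosphofructokinase) at 0.32, Eno2 at 0.22, Gapdh at 0.31, Hk2 and Pfkfb2, against Hk1 at −0.22, and the member with the highest level, Pkm, was at −0.073 (SE 0.072). Gapdh was at 283 and 278 CPM in controls 4 and 5, 373 in control 2, 455 to 519.5 in controls 1, 3 and 6, and 461 to 526 in Txnip cones, so controls 1 and 3 lay within the Txnip range, control 6 just under it, and the 3 controls with the low ribosomal share far under it. Without those 3 controls, 0 glycolytic genes were higher and 0 lower.

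Genes of oxidative metabolism were counted next. Of 37 complex I genes 1 was higher and 0 lower at an unadjusted p under 0.05, of 25 genes of complexes II to IV 1 and 0, and of 19 ATP synthase genes 0 and 0. Their medians were −0.0084, −0.057 and 0.022. The TCA cycle list (30 genes) had 0 higher and 1 lower, and the hypoxia targets (18 genes) 0 and 0. Of 7 protein genes of the mitochondrial genome 0 were higher and 1 lower, and of 24 genes of fatty acid and ketone use 2 and 4 (1 and 0 with the ribosomal share as a covariate).

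Genes tied to Txnip itself were few. Among 8 tested genes of the arrestin domain family, the MondoA sensors and their targets, Txnip left out, Tkt (transketolase of the pentose phosphate pathway) was at 137 to 163 CPM in controls and 142 to 236 in Txnip cones (0.41, SE 0.10). Every Txnip library except Txnip 6 lay above all controls. Mxd4 was at 0.42 (SE 0.18) and Arrdc3, a paralogue of Txnip, at −0.26 (SE 0.12). Of 33 thioredoxin, glutathione and peroxide genes, 2 were higher and 4 lower, with a median of −0.042. With the ribosomal share as a covariate 1 was higher and 1 lower (median 0.0016), and without controls 2, 4 and 5 1 and 0.

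Proteostasis was covered by several lists. In the unfolded protein and integrated stress list 5 of 35 genes were lower and 0 higher. They were Ppp1r15a (above), Dnajb11 (an endoplasmic reticulum co-chaperone) at −1.17 (SE 0.32), Xbp1 at −0.61 (SE 0.18), Chac1 at −0.36 (SE 0.11) and Hspa5 (BiP), the most abundant, at −0.31 (SE 0.12). Dnajb11 had the same step, at 68.8 to 135 CPM in controls, 104 and 79.7 in Txnip 1 and 2 and 21.9 to 25.9 in Txnip 3 to 6. Xbp1 did likewise (169 and 159.8 against 74.2 to 97.1), whereas Chac1 was at 46.2 to 59.4 CPM in Txnip cones with no such step. The list's median was −0.044, with quartiles of −0.15 and 0.15, against −0.14 and 0.15 for all genes. With the ribosomal share as a covariate 2 were lower and 1 higher.

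Of 40 ubiquitin ligase and cullin genes, 8 were lower and 3 higher, with a median of −0.053. Leading members were the ligase Ube3b (−0.52), Rnf111 (−0.61), Keap1, the adaptor that marks Nrf2 for degradation (−0.42), and the scaffold Cul4a (−0.40), while the most abundant, Nedd4, was at −0.15. With the ribosomal share as a covariate 3 were lower and 1 higher. The lysosome, V-ATPase and autophagy list had 3 higher and 4 lower of 55. Besides Lamp1 these included the autophagosome genes Wipi2 (−0.76, SE 0.21) and Atg3 (−1.02, SE 0.30) and, on the other side, the autophagy receptor Sqstm1 (0.38, SE 0.12). Atp6v0e2, the most abundant member of the list, was at −0.057. With the ribosomal share as a covariate 1 member of the list was higher and 3 were lower. Wipi2 was at 82.05 to 119.9 CPM in controls, 97.7 and 95.1 in Txnip 1 and 2, and 34.5 to 48.5 in Txnip 3 to 6. The cytosolic chaperone list had 1 higher and 1 lower of 30. The proteasome list (40 genes) had 1 higher and 2 lower, with a median of −0.011.

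Genes of the cilium, synapse and vesicle traffic gave members on both sides. Of 47 cilium genes 4 were lower and 1 higher, led by Pde6d, which delivers prenylated proteins to the outer segment (−0.54, SE 0.13). Of 45 Rab genes 4 were lower, among them Rab28 (−0.86, SE 0.21) and the Golgi GTPase Rab6a (−1.03, SE 0.35), and 2 higher. Ribbon synapse genes (25 tested) had 2 higher, with the active zone gene Rims1 at 0.82 (SE 0.22), and 2 lower, with the photoreceptor syntaxin Stx3 at −0.28 (SE 0.092). Pumps and channels of photoreceptors (25 tested) had 4 lower and 2 higher, with the sodium pump subunit gene Atp1b2 at −0.33 (SE 0.11). Atp1b2 was at 3810.3, 4263 and 4692 CPM in controls 2, 4 and 5, 2834 to 2922 in controls 1, 3 and 6, and 2497 to 2998 in Txnip cones, so the latter overlapped the lower controls. The counts of higher and lower genes with the ribosomal share as a covariate were 1 and 2 in the cilium list, 1 and 2 in the Rab list, 2 and 0 in the synapse list, and 1 and 0 in the pump list, and without controls 2, 4 and 5 the pump list had 0 lower. The medians of the cilium, Rab, synapse and pump lists were −0.044, −0.028, 0.057 and 0.087.

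Nuclear genes were mixed in the same way. Of 65 chromatin remodellers and histone-modifying enzymes 7 were higher and 5 lower. With the ribosomal share as a covariate these were 3 and 2, and without controls 2, 4 and 5 2 and 1. Over single libraries left out in turn the number higher ran from 3 to 12, the latter without control 6. The histone demethylase Kdm5b was at −0.63 (SE 0.16), and the chromodomain helicases Chd3 and Chd7 lay on opposite sides, at 0.52 (SE 0.15) and −0.26 (SE 0.077). Of 25 sterol genes Srebf2 alone was past p under 0.05, and the median was 0.052. Cytosolic ribosomal protein genes (83 tested) had 3 higher and 3 lower, with a median of 0.069. Leaving out each library in turn gave between 0 and 12 higher, the latter without control 3.

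A further list was made of 24 genes that the study names for Txnip in cones of mice with retinitis pigmentosa, whose libraries were not used here. 11 of 24 were lower in these wildtype cones and 1 higher, with a median log2 fold change of −0.32. The study's list mixes genes of both directions, more of them lowered than raised, with mt-Cytb among the raised. Acsl3, which activates long-chain fatty acids, was at 128, 156 and 170.1 CPM in controls 2, 4 and 5, 45.8 to 73.6 in controls 1, 3 and 6, 78.8 and 43.9 in Txnip 1 and 2, and 22.5 to 37.2 in Txnip 3 to 6 (−1.34, SE 0.33, edgeR adjusted p = 0.112). Its span overlaps that of Utp14b, another member of the list. Ankle2, which acts in nuclear envelope assembly (−1.19), Socs5 (−0.74) and Megf9 (−0.92) had a similar order of libraries, and mt-Cytb, the most abundant member, was at −0.22 (SE 0.10). With the ribosomal share as a covariate 4 members were lower and the median was −0.14. Without controls 2, 4 and 5, 2 were lower and the median was −0.15. Leaving out Txnip 1 instead made 14 members lower.

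Markers of other retinal cells were counted beside these lists. Bulk RNA cannot tell fewer cells of a type from less RNA per cell. Of 10 amacrine markers tested, 4 were higher and 0 lower, with a median of 0.36. Beside Pax6 and Gad1 these were Chat (acetylcholine synthesis) at 0.92 and Calb2 (calretinin), the most abundant, at 0.40. The summed amacrine level was 594 to 891 CPM in controls and 916 to 1114 in Txnip libraries. It contains Pax6 and Gad1, which were ranked on this contrast, so its lack of overlap is no separate result. The mean log2 deviation of the tested markers, Pax6 and Gad1 included, overlapped between groups. It ran from −0.68 to 0.12 in controls and from −0.065 to 0.36 in Txnip libraries. Whether amacrine RNA in the sorted cells accounts for the levels of Pax6 and Gad1 was not tested.

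Rod markers had 3 higher and 0 lower of 16, with a median of 0.23. The exchanger gene Slc24a1 ran from 22.1 to 45.96 CPM in controls and from 27.5 to 53.9 in Txnip cones (0.40, SE 0.19), with overlap, and Gnb1 was at 0.27. Sag (arrestin-1), which cones also make, was at −0.043 (SE 0.073). The rod markers summed to 10709 to 13242 CPM in controls and 11627 to 12468 with Txnip, which overlap. Without Txnip 1 the median was 0.13, with 0 members higher. With the ribosomal share as a covariate 0 were higher (median 0.13), without controls 2, 4 and 5 0, and without Txnip 4, 5 and 6 6 (median 0.36). Of 6 Müller glia markers tested, Dkk3 (0.46) and Glul (0.46) were higher and Apoe (−0.47, SE 0.15) lower, with a median of 0.30. Without Txnip 3 0 were higher and the median was 0.13, without controls 2, 4 and 5 it was 0.077, and with the ribosomal share as a covariate 1 was higher. Of 13 bipolar markers 2 were higher and 0 lower, with a median of 0.019, and 1 was higher with the covariate. No ganglion cell (11 tested) or horizontal cell marker (5 tested) passed p under 0.05. Of the ganglion cell markers 10 had a positive difference, with a median of 0.22, 0.30 with the ribosomal share as a covariate, 0.088 without control 2 and 0.090 without Txnip 4, 5 and 6.

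Cone genes themselves differed little. Of 28 cone genes 0 were higher and 2 lower. Gulo, an enzyme of ascorbate synthesis in mice, was at −0.35 (SE 0.087) and Gnat2, the alpha subunit of cone transducin, at −0.21 (SE 0.074). Gnat2 ran from 4199 to 5408 CPM in controls and from 3857 to 4535 in Txnip cones, with overlap. The short-wavelength opsin gene Opn1sw, the most abundant cone transcript of the list, ran from 25506 to 38201 and from 23272 to 30482 (−0.19, SE 0.092, edgeR adjusted p = 0.437).

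The interferon and innate sensing list had a median of 0.36 over 17 tested genes, with 3 higher and 0 lower. They were Mx2 (1.08), the peptide transporter Tap1 (0.96) and B2m (0.89), all at low levels. Tap1 was at 32.2 CPM in Txnip 3 and 3.78 in Txnip 1, with controls between 4.997 and 11.2. The list's summed share of counts was 0.1697% in Txnip 3, 0.119% in control 2, 0.108% in Txnip 2 and at most 0.0859% in the other libraries. Without Txnip 3 the median was 0.040 and 0 members were higher. Without Txnip 1 the median was 0.48 with 9 members higher, and 6 were higher without controls 2, 4 and 5 and 7 without Txnip 4, 5 and 6, so the count turned on single libraries in both directions.

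**Figure D3:**
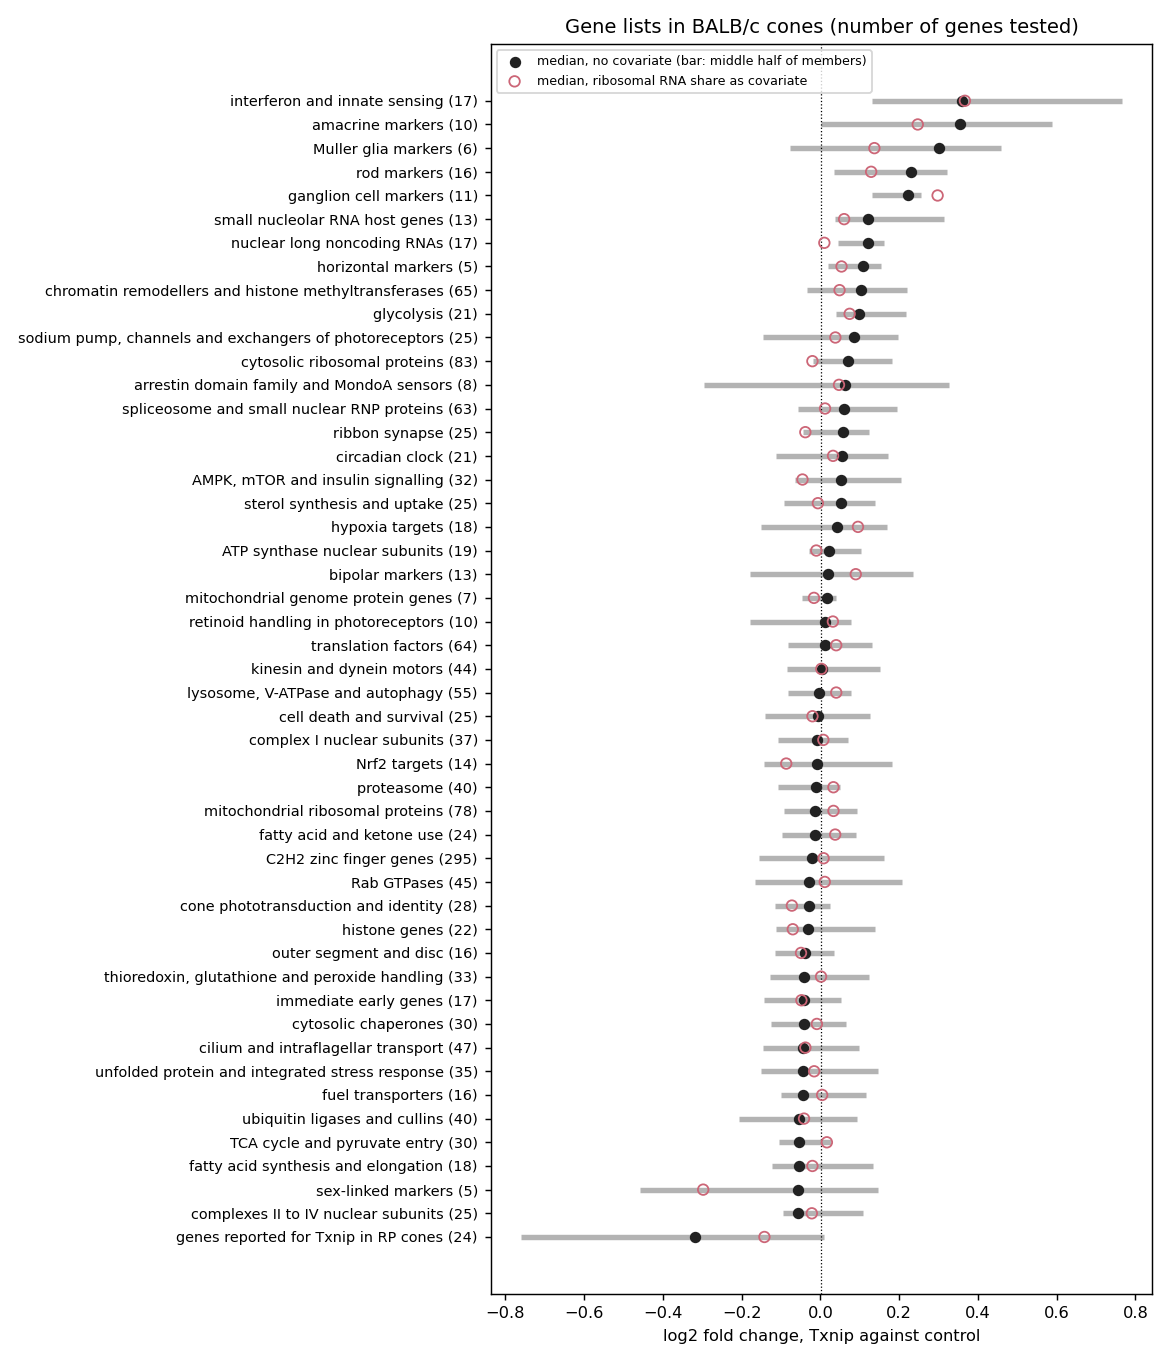
Median log2 fold change of each list with at least 5 tested genes, with no covariate (black points; grey bars span the interquartile range of the members) and with the log2 ribosomal RNA locus share as a covariate (open red circles). Most medians lie within 0.1 of 0, and the list of genes named for retinitis pigmentosa cones moves from −0.32 to −0.14 with the covariate.

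Consistency was read in libraries that had not been used to choose the genes. Each of the 36 pairs of 1 Txnip and 1 control library was left out in turn, the genes with p under 0.05 were taken from the other 10 libraries, and the sign of their difference was read in the pair left out, with Txnip and Gm15441 set aside. The share with the same sign had a median of 66.5% and ran from 38.7% to 84.7% over pairs, which share libraries and are not independent. Over all genes tested, whatever their p, the share ran from 47.2% to 62.99%. The outcome turned on which control was left out. Pairs with control 5 had a median of 78.4%, with control 4 76.4% and with control 2 76.2%, whereas pairs with controls 1, 6 and 3 had medians of 58.6%, 60.6% and 62.1%. Controls 2, 4 and 5 are those with the low ribosomal share.

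Genes chosen as lower kept their sign more often than genes chosen as higher in the median of every library except Txnip 1, where it was 51.6% for lower and 56.7% for higher genes. Against control 1 the median share was 65.6% for lower and 49.5% for higher genes, and against control 6 it was 69.3% and 51.7%. Against these controls, which had a high ribosomal share, the higher genes were about as often below as above. Among Txnip libraries, Txnip 1 had the lowest median, 53.6%, and was under 50% against controls 1, 3 and 6. Txnip 5 had the highest, 73.7%. Without Txnip 1 edgeR called 242 lower and 16 higher genes. Of the 256 that were not Txnip or Gm15441, most of them lower, 144 were under the control median in Txnip 1. With all 12 libraries 251 of the 256 had p under 0.05, in a fit that shares every library except Txnip 1. Without control 1 it called 13 lower and 10 higher.

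**Figure D4:**
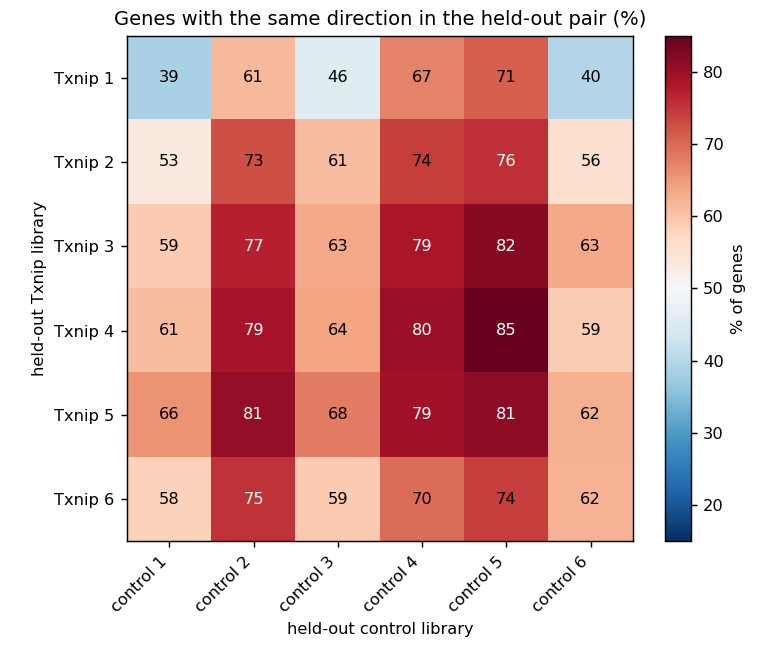
Percent of genes with p under 0.05 in 10 libraries that had the same direction in the Txnip and control library left out, for each of the 36 pairs (rows, Txnip library; columns, control library; white is 50%). The columns of controls 2, 4 and 5 are high throughout, and Txnip 1 is lowest, at 38.7% against control 1.

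Dependence on the ribosomal RNA locus share was fitted with the group in the model, so that a slope is the log2 change of a gene for each doubling of the share within groups. It called 361 genes with a positive (3% of those tested) and 184 with a negative slope (1.53%) after Benjamini-Hochberg adjustment in edgeR. The genes of the locus define the share and had slopes of 1.05 to 1.10. Beyond them the positive slope with the smallest p was that of mt-Rnr2, the large ribosomal RNA of mitochondria, at 1.02 (SE 0.055). It was at 4931 and 4761 CPM in controls 4 and 5, 7488 in control 2 and 11969.7 to 14147 in all others. A gene with no symbol that overlaps the nuclear long noncoding RNA Malat1 on the opposite strand, ENSMUSG00000092267, had a slope of 1.86 (SE 0.14).

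On the negative side stood Ttn, the giant muscle protein titin, with a slope of −3.31 (SE 0.26). It was at 118, 67.2 and 22.2 CPM in controls 4, 5 and 2 and between 1.93 and 8.09 in the other 9 libraries. Cpe, the carboxypeptidase of peptide hormone processing, had a slope of −1.28 (SE 0.16), at 1314 and 1364 CPM in controls 4 and 5, 561 in control 2 and 231 to 430.3 elsewhere. Atp1b2, a sodium pump subunit of photoreceptors (−0.46, SE 0.054), Fnta, a farnesyltransferase subunit (−0.91, SE 0.13), and Gm45828 (−0.82, SE 0.11) were the other leading genes. All 5 were highest in the same 3 controls. By list, and beside the 3% positive and 1.53% negative of all genes, 11 of 83 cytosolic ribosomal protein genes had a called positive and 0 a called negative slope, with a median slope of 0.19. For 63 spliceosome genes these were 9 and 0, for 25 ribbon synapse genes 5 and 0, and for 16 rod markers 4 and 0. On the other side, the 24 genes named for retinitis pigmentosa cones had 0 positive and 5 negative called slopes, with a median slope of −0.25.

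The slopes were then fitted in each group alone. Within the 6 controls, 396 genes of 10373 had a called positive and 286 a called negative slope. Within the 6 Txnip libraries, whose shares span a narrower range, these were 3 and 2 of 10135, with 492 at an unadjusted p under 0.05. Across the 9717 genes tested in both, Spearman's rho of the 2 slopes was 0.0943, given as a description across genes. Slopes were also ordered by base composition. The median slope was −0.068 in the fifth of genes with the lowest GC content and 0.094 in the highest, and the median Txnip difference over the same bins went from −0.031 to 0.040.

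**Figure D5:**
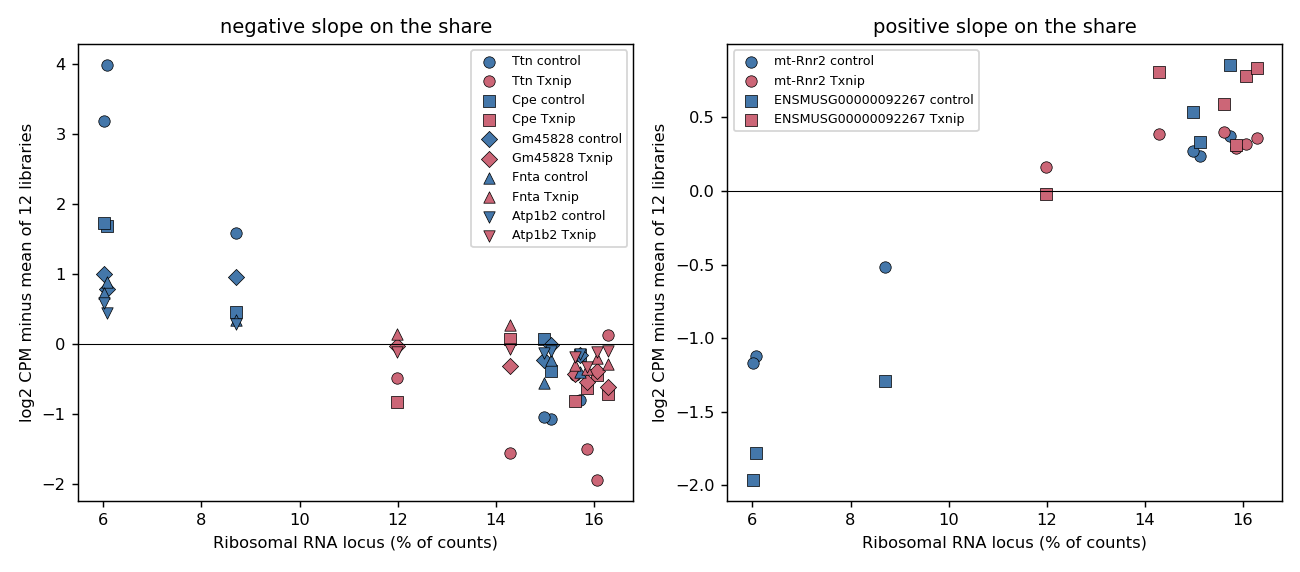
Level of the genes with the strongest slopes on the ribosomal RNA locus share, outside the locus, as log2 CPM minus the mean of 12 libraries, against the share of counts on the locus (blue, control; red, Txnip; marker shape, gene). Controls 2, 4 and 5, at shares of 6.00% to 8.696%, are the highest libraries for each gene with a negative slope and the lowest for both genes with a positive one.

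Controls 2, 4 and 5 weigh on both the slope on the share and the Txnip difference. Agreement in sign between slope and difference is therefore partly built in. Of the 557 genes higher with Txnip at p under 0.05, Txnip and Gm15441 left out, 76 had a called positive slope on the share and 0 a negative one. Of the 813 lower genes 90 had a called negative and 1 a positive one. Among all genes tested, 3% had a called positive and 1.53% a called negative slope. With the share as a covariate, 272 genes were higher (2.26%) and 434 lower (3.61%) at p under 0.05. 322 of the lower and 152 of the higher genes kept p under 0.05, and the median differences of all these lower and higher genes went from −0.56 to −0.39 and from 0.48 to 0.34. Without controls 2, 4 and 5, 286 genes were higher and 329 lower at p under 0.05 among 12544 tested, and edgeR again called only Txnip and Gm15441. Since the share was low only in controls, its part in the difference between groups cannot be told apart from that of Txnip within these libraries.

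The ranked genes differed in how far they followed the share. Pck2 (0.92, and 0.90 with the covariate), Gucy1a1 (0.73 and 0.71) and Unc119b (−1.002 and −0.86) had similar values in both fits. Lamp1 went from −1.35 to −0.74 and Pax6 from 0.65 to 0.50.

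Fewer genes followed library depth. In edgeR no gene had a called slope on the log2 total count (0%), with 477 at an unadjusted p under 0.05 (3.97%), and DESeq2 with the same model called 18. With the total as a covariate the Txnip comparison gave 521 higher and 819 lower genes at p under 0.05, of which 487 and 772 were among those without it. Of the 4 libraries on the low side of the step described above, Txnip 3 was the deepest Txnip library (4699750 counts) and Txnip 4, 5 and 6 the shallowest, while Txnip 1 and 2 lay between them. Without those 3 shallow libraries 366 genes were higher and 583 lower at p under 0.05, and edgeR called the same 2 genes.

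The difference between strains was tested directly. In a fit of all 18 libraries, edgeR called 0 of 14751 genes for an interaction of Txnip with strain, with a smallest adjusted p of 0.339, and 706 had an unadjusted p under 0.05. DESeq2 was not run for the interaction. The direction in C57BL/6J, where edgeR called 2 of 12974 genes, is given as a description across genes. Of 803 genes lower in BALB/c at p under 0.05 and tested in both strains, 39.6% had a negative difference in C57BL/6J, against 47.6% of all 11485 shared genes, and at p under 0.01 it was 32.7% of 330. Of 504 higher genes 55.95% had a positive difference, against 52.4%, and at p under 0.01 it was 49.5% of 109. Among named genes, Rhot1 was at −0.0016 (SE 0.25) in C57BL/6J, Lamp1 at 0.057 (SE 0.23) and Pax6 at −0.060 (SE 0.72), while Gad1 was at 0.91 (SE 0.79). Strain, age and animals differ together between these sets, and with 3 libraries a group in C57BL/6J the standard errors are wide. The ribosomal RNA locus share was also uneven there, at 3.27%, 27.5% and 6.44% in C57BL/6J controls. In C57BL/6J Txnip libraries it was 5.70%, 26.9% and 20.2%, and the C57BL/6J fit did not have it as a covariate.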

How the data were processed

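RNA-seq counts of sorted cones were analysed in 12 BALB/c libraries (6 Txnip, 6 control), with 6 C57BL/6J libraries for the comparison of strains. The authors aligned read pairs with STAR to GRCm38.p6 and made the deposited counts with featureCounts 1.6.2 on Ensembl 94 exons, per the file headers, without strand and counting a pair for each gene it overlaps. Further deposited tables hold the authors' fold changes and p-values and were not used. Gene symbols came from GENCODE, and 123 of 54532 gene IDs had none. Groups were taken from the labels.

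Counts were tested with edgeR 4.0.16 in R 4.3.3 by filterByExpr, TMM scaling and the quasi-likelihood test, with Benjamini-Hochberg adjustment over all genes tested and a threshold of 0.05. Differences are log2 Txnip over control. The ribosomal RNA locus share and the total were tested as log2 covariates beside the group. Library values were compared by two-sided exact permutation tests over 924 assignments. DESeq2 1.42.0, limma 3.58.1, other filters, counts thinned to the shallowest library, covariates and leaving out each library served as alternatives, and 2 alternatives, without the 3 controls of lowest ribosomal share and without the 3 Txnip libraries of lowest total, were added after seeing the data. The fitting code was checked on simulated data.

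Total counts ranged from 647712 to 5172156. Among pairs of BALB/c libraries of the same group, the pairs compared, none agreed within sampling noise. Same-numbered libraries did not deviate together (correlations of −0.097 to 0.14), so numbers were not taken as pairs. Named were Txnip and Gm15441, the 15 higher and 15 lower genes of smallest p at a mean of at least 10 CPM, per list up to 4 members of smallest p under 0.05 and the most abundant, the 5 genes in each direction of smallest p for the ribosomal share, and the locus genes. Gene lists and members were chosen with earlier results of these data known. Some genes that these rules name are not reported here.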

Additional observations from a re-analysis of the deposited data

Results flagged for a closer look

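Dixon's test for a single distant value was applied to the CPM of the named genes in each group of 6, 186 groups in all, and 6 values stood out. Chance alone gives about 1 in 20 such groups. Txnip 1 was high for Ankle2 (45.8 CPM, against 12.9 to 23.9 in the other Txnip libraries) and for Cpe (430.3 CPM, against 231 to 303), and for both genes it lay within the range of the controls. Txnip 2 was low for Chac1, at 46.2 CPM against 55.3 to 59.4. Control 6 was high for the rod exchanger Slc24a1, at 45.96 CPM, against 22.1 to 28.6 in the other controls. Control 3 was high for Gm15441, at 1.02 CPM, where the other controls were at 0 to 0.307. Control 2 was high for Chd7, at 480.4 CPM against 390.3 to 413 in the other controls.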

How the results depend on the processing

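The count of 2 called genes stayed within 1.5 times of that value under limma, DESeq2 size factors, robust estimation, each covariate, removal of the ribosomal RNA locus, a joint fit of all 18 libraries and both alternatives added after seeing the data. DESeq2 called 76. A filter of at least 1 count called 1400 genes, of which 851 were not tested otherwise, with 1157 higher against 6641 lower at an unadjusted p under 0.05 and a median over all genes of −0.23. A filter of at least 10 counts in every library removed Txnip and Gm15441 themselves and called 0 genes in edgeR, with 387 higher and 574 lower at an unadjusted p under 0.05. Thinned counts gave 34. Leaving out each library gave between 2 and 258 calls, 258 without Txnip 1, 23 without control 1 and 6 without Txnip 2. The replicate block gave 3 calls, with 5 lists past the limit of 0.2, and no library correlated best with its own number. The number of such lists was 6 and became 27 with the 1-count filter. The 545 genes with a slope on the ribosomal share became 1205 without the group in the model, 1028 in DESeq2 and 163 without the library of lowest share, control 5, and the 0 genes for depth became 18 in DESeq2. The median held-out share was 73.6% for genes at p under 0.01 and 61.0% at p under 0.2. The causes of these differences were not tested.

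Of the alternative values of the named genes, 2014 had the same direction and side of the threshold, 177 passed it only in the alternative, and 12 had the other sign. With the ribosomal share as a covariate these were Pkm (0.030), Atp6v0e2 (0.010), Fnta (0.27), CT010467.1 (−0.015), Gm42418 (−0.019) and AY036118 (−0.021), and with both covariates mt-Cytb (0.016), Pkm (0.022), Fnta (0.28), CT010467.1 (−0.017), Gm42418 (−0.021) and AY036118 (−0.025).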
